A study of Mus musculus with 8 samples.

Results

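The values of 9 genes of transcriptional control in hematopoietic stem cells (HSCs), the cells that give rise to all blood lineages, are described here in cells from mice that had lost the autophagy gene Atg12. The 9 genes were Mecom, Prdm16, Gfi1b, Hlf, Meis1, Runx1, Eya1, Nrip1 and Mllt3. They were chosen by gene symbol from the 24213 genes measured, and all 9 were found. The knockout group was 4 samples from C57BL/6 mice carrying floxed Atg12 alleles (Atg12flox/flox) and Mx1-Cre, and the control group was 4 samples from C57BL/6 mice with the same floxed alleles and no Cre. All mice had received poly(I:C), an RNA mimic of viral infection that triggers an interferon response, at an age of 4 weeks. Bone marrow was taken 2 to 3 months later from mice aged 3 to 4 months, and the sorted cells lacked lineage markers, Flk2 and CD48 and carried c-Kit, Sca-1 and CD150 (Lin-, Flk2-, CD48-, c-Kit+, Sca-1+ and CD150+). Per the series' design the cells came from individual mice, and amplified RNA was hybridised to 8 Affymetrix Gene ST 1.0 arrays, 4 in each group. Each value is a log2 signal, so a difference of 1 is a doubling of signal. Mx1-Cre is driven by an interferon-inducible promoter that is not restricted to HSCs, and no mouse carried Cre alone, so Cre and the loss of Atg12 cannot be told apart as sources of a difference.

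Most of the 9 genes encode DNA-binding factors, and 3 encode cofactors that act through other proteins. Mecom (also called Evi1) and Prdm16 are paralogous zinc finger proteins with a PR domain, and both are required to maintain HSCs in mice. Gfi1b is a zinc finger repressor that recruits Kdm1a and Rcor1 and limits HSC cycling, and it is also required in erythroid cells and megakaryocytes. Hlf, a PAR bZIP factor, marks HSCs closely and keeps them quiescent, and Meis1 is a homeodomain protein that binds DNA with Hox partners. Runx1 pairs with Cbfb, is needed for HSCs to arise in the embryo and acts in several adult lineages. Eya1 is a transcriptional cofactor and phosphatase that works with Dach proteins, Nrip1 is a corepressor of nuclear receptors, and Mllt3 (Af9) reads modified histones and joins the elongation machinery.

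Promoter sequence is shown for Meis1, Hlf and Nrip1, because these 3 genes varied together across the 8 arrays, as described further on. Other pairs of the 9 genes varied together as closely. Each line gives the 250 bases before a RefSeq transcript start on the minus strand of GRCm38.p6, at chr11:19018970-19019219 for Meis1, chr11:90390918-90391167 for Hlf and chr16:76373828-76374077 for the upstream start of Nrip1. Capitals mark matches to 1 of 6 motifs searched on both strands.
Meis1: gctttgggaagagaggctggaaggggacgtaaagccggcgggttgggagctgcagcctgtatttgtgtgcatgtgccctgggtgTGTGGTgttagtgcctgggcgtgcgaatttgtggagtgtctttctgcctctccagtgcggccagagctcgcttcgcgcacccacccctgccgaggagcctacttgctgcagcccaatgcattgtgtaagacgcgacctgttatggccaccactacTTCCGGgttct
Hlf: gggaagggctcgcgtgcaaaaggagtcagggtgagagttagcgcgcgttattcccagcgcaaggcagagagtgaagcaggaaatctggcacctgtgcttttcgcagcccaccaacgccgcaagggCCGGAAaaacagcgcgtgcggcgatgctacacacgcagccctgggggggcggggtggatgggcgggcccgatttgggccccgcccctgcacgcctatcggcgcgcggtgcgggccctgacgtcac
Nrip1: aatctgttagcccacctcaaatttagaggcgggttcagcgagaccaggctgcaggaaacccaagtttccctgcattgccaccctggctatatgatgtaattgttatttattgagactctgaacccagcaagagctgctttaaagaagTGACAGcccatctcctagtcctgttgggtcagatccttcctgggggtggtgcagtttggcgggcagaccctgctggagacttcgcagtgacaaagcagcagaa
In Meis1 the capitals mark the Runx motif, which begins 166 bases before the start, and the ETS motif in reverse, which begins 11 bases before it. In Hlf they mark an ETS motif 125 bases before the start, and in Nrip1 a Meis motif 103 bases before it. RefSeq gave 12 such windows for 8 of the 9 genes, and none was found for Eya1. The motif of Runx proteins, TGTGGT, was in 1 of the 12 windows and in 14.0% of 32851 windows of all genes. The motif of Meis proteins, TGACAG, was in 3 of the 12 and in 15.9% of all windows. The motif of ETS factors, CCGGAA, was in 3 of the 12 and in 12% of all windows. The motif of Gata factors, AGATAA, was in 0 of the 12 and in 9.99% of all windows. The motif of Hlf, TTACGTAA, was in 0 of the 12 and in 0.113% of all windows. The motif of Gfi1 and Gfi1b, AAATCAC, was in 0 of the 12 and in 2.75% of all windows. No motif was thus shared by all 3 printed windows, and a match is a string of letters rather than a measured binding site.

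The targeted gene was read first. Atg12 gave 5.66, 5.45, 5.35 and 5.56 in knockouts 1 to 4, against 6.41, 6.37, 6.55 and 6.42 in controls 1 to 4. It fell by 0.93 on the log2 scale (SE 0.10), to 52.4% of control signal, and was the only one of 24213 genes past the threshold of an adjusted p under 0.05 (limma, adjusted p = 0.0310). This call was lost when any 1 of the 8 arrays was left out (limma adjusted p between 0.0542 and 0.226). Sex-linked transcripts differed between arrays: Xist was high in knockouts 1, 2 and 4 and in control 4, while Y-linked genes were high in knockouts 3 and 4 and in controls 1, 2 and 3. Knockout 4 carried both signals, and whether it holds RNA of more than 1 mouse is not known, so knockout means and n = 4 are open to that doubt. Without knockout 4 the differences described further on were -0.69 for Eya1, -0.52 for Gfi1b, -0.36 for Nrip1, -0.21 for Hlf, -0.16 for Meis1 and 0.52 for Prdm16. Transcripts of this kind, on arrays that lacked them, gave signals up to 3.20, which is called the absent-transcript level here. On the first principal component knockout 3 stood farthest out (-39.5), followed by control 1 (-12.2), with the other 6 arrays between 2.82 and 14.8. The upper quartile of all signals was also lowest on knockout 3 (5.88) and control 1 (5.96), against 6.01 to 6.06 on the other 6 arrays.

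The sort label was set against 8 genes of the gate and of HSCs. Kit averaged 8.44 ± 0.09 in knockouts and 8.56 ± 0.10 in controls (SD, n = 4 each). Ly6a, which encodes Sca-1, averaged 4.66 in knockouts and 4.01 in controls and was above the absent-transcript level on all 8 arrays. Slamf1, which encodes CD150, was not above it on any array. Cd48 averaged 8.59 in knockouts and 8.63 in controls, Cd34 9.38 and 9.59, and Flt3 (the gene of Flk2) 5.32 and 5.39. These genes were above the absent-transcript level on all 8 arrays, although CD48 and Flk2 protein defined cells to be left out. The HSC genes Fgd5 and Procr were above it on 3 of 4 knockout and 3 of 4 control arrays each. Ly6a was the one of these 8 genes with an unadjusted limma p under 0.05, with a difference of 0.65 (SE 0.20, adjusted p = 0.991). The myeloid granule genes Mpo and Elane averaged 12.2 and 11.3 in each group. By mean signal among all genes, Mpo stood at percentile 99.9, Elane at 99.4, Cd34 at 97.8, Cd48 at 95.8 and Kit at 95.5. Ly6a stood at 56.6 and Slamf1 at 29.4. Signal cannot be compared exactly between genes here, and which cells the samples held was not tested. The cells are called HSCs by their sort label alone, which the levels of Cd48 and Slamf1 do not bear out.

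None of the 9 genes passed the test between the groups, and the gene with the lowest p was Eya1. Of the 9, 0 were called at an adjusted p under 0.05, where 0.00413% of all genes were called (limma). At an unadjusted limma p under 0.05 there were 4, where 4.94% of all genes reached that level. These were Eya1, Gfi1b and Nrip1 on the lower side in knockouts (2.5% of all genes) and Prdm16 on the higher side (2.43% of all genes). The groups did not overlap for 1 of the 9, Eya1, against 2.9% of all genes, 1.54% with the knockouts lower and 1.36% with the knockouts higher. The 9 genes were chosen with earlier results of these data known, Eya1 among them, so these counts describe the genes and are no test of them. Differences lay between -0.69 and 0.44, with 6 genes below 0 and 3 above, and a median of -0.17 beside 0.00171 over all genes. In data simulated for knockout minus control over 24213 genes, 21 of 67 genes changed by 0.5 were recovered, 55 of 67 changed by 1 and 66 of 66 changed by 2. These shares hold for data with that many changed genes and may not carry over to data with 1 call.

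**Figure D1:**
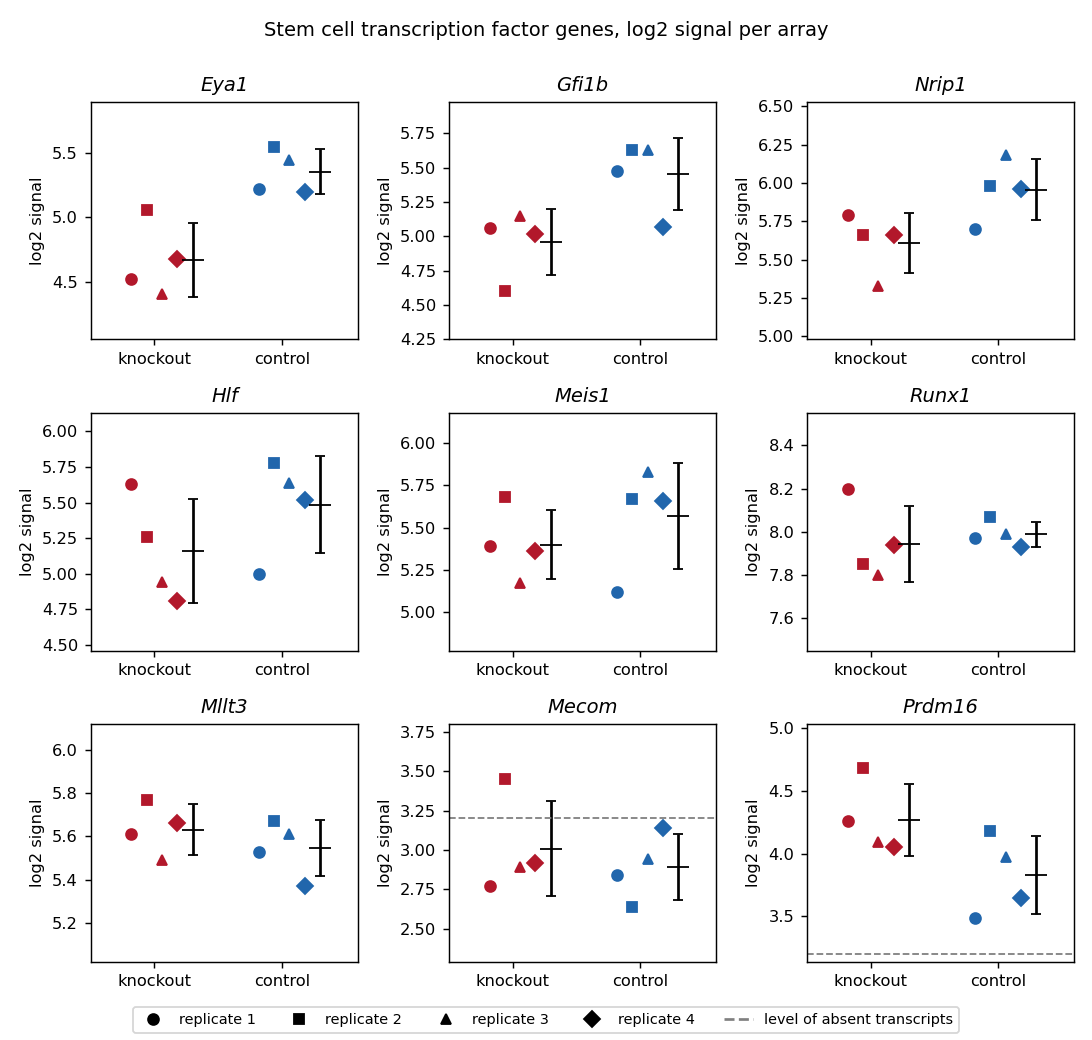
Log2 signal of each of the 9 genes (vertical axes, a separate scale per gene) in 4 knockout arrays, left and red, and 4 control arrays, right and blue; marker shapes give the replicate number, and black bars the group mean ± SD. Eya1 is the gene whose groups do not overlap, and Mecom lies below the dashed level of absent transcripts (3.20) on all arrays but knockout 2.

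Eya1, the cofactor and phosphatase, had the largest difference of the 9. It read 4.52, 5.06, 4.40 and 4.68 in knockouts 1 to 4, against 5.22, 5.55, 5.45 and 5.20 in controls 1 to 4. All 4 knockout arrays lay below all 4 control arrays, and knockout 2 came nearest to the controls. The mean was 4.67 ± 0.29 in knockouts and 5.36 ± 0.17 in controls (SD, n = 4 each), and the two-sided exact permutation p of 0.0286 is the lowest possible with 4 arrays in each group. The difference of -0.69 (SE 0.15, 95% interval -1.02 to -0.36) left 62.0% of control signal. Eya1 ranked 22 by p among 24213 genes, and its adjusted p was 0.771 (limma). Sex-linked signal moved with the groups, so the difference was also taken within arrays: it was -0.41 among arrays with Xist alone (2 knockout, 1 control) and -1.01 among arrays with Y-linked signal alone (1 knockout, 3 control). With Xist signal as a covariate it was -0.72. In bulk RNA, fewer cells that express a gene and less of its RNA per cell cannot be told apart.

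Nrip1, the nuclear receptor corepressor, lay lower in most knockout arrays without passing the test. It read 5.79, 5.66, 5.33 and 5.66 in knockouts 1 to 4, against 5.70, 5.98, 6.18 and 5.96 in controls 1 to 4. In 15 of the 16 pairings of a knockout with a control array the knockout was lower, and the exception was knockout 1 with control 1. The difference was -0.35 (SE 0.13, 95% interval -0.64 to -0.06; limma adjusted p = 0.991; two-sided exact permutation p = 0.0571). It was -0.26 without knockout 3, the lowest of its group, and -0.43 without control 1, the lowest of its own.

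Mllt3, the histone reader, gave 5.61, 5.77, 5.49 and 5.66 in knockouts 1 to 4, against 5.53, 5.67, 5.61 and 5.37 in controls 1 to 4. The groups overlapped almost fully. The difference of 0.09 (SE 0.10) had a 95% interval of -0.14 to 0.31, which is the narrowest of the 9 genes. With 1 array left out it ranged from 0.03 (without control 4) to 0.13 (without knockout 3), and it was 0.04 without knockout 2. Its sign was positive among arrays with Xist alone (0.32) and negative among those with Y-linked signal alone (-0.12).

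Gfi1b, the zinc finger repressor, had the second largest difference of the 9. It read 5.06, 4.60, 5.15 and 5.02 in knockouts 1 to 4, against 5.48, 5.63, 5.63 and 5.07 in controls 1 to 4. The overlap came from 1 array, since control 4 lay below knockout 3 and just above knockouts 1 and 4. Means were 4.96 ± 0.24 in knockouts and 5.45 ± 0.26 in controls (SD, n = 4 each; two-sided exact permutation p = 0.0571). The difference was -0.49 (SE 0.15, 95% interval -0.84 to -0.15; limma adjusted p = 0.991). Control 4 was the one control with Xist signal: without it the difference was -0.62, and with Xist signal as a covariate it was -0.29.

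Gfi1b is also active in megakaryocytes and erythroid cells, and markers of both were read beside it. The list mean of 10 megakaryocyte and platelet markers lay at 3.83 to 4.12 in knockouts and 4.23 to 4.43 in controls, with no overlap. Of the 10 genes 8 had a difference below 0, beside 49.4% of all genes, and the median was -0.16. Taken singly, 1 of the 10, P2rx1, had groups that did not overlap, against 2.9% of all genes. None passed the test over all genes, and 9 of the 10 had a mean above the absent-transcript level, all but the platelet chemokine gene Ppbp. P2rx1, a platelet ATP receptor, differed by -0.65 (SE 0.17) and Pf4, platelet factor 4, by -1.40 (SE 0.44). These were the 2 genes of lowest limma p in the list. Other genes of the list differed little: Itgb3 by 0.03, Gp1bb by 0.01, Vwf by -0.02, Gp9 by -0.06 and Ppbp by -0.09. The list mean of 9 erythroid markers lay at 3.94 to 4.33 in knockouts and 3.94 to 4.19 in controls, with 4 of 9 genes below 0. Tfrc, the transferrin receptor, differed by 0.74 (SE 0.15) with no overlap, Car2, a carbonic anhydrase, by -0.81 (SE 0.28), and Klf1, an erythroid transcription factor, was not above the absent-transcript level on any array. The part of megakaryocyte RNA in the Gfi1b values was not tested.

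Prdm16 was the one of the 9 genes whose 95% interval lay above 0. It read 4.26, 4.68, 4.09 and 4.05 in knockouts 1 to 4, against 3.49, 4.18, 3.97 and 3.65 in controls 1 to 4. Knockouts 1 and 2 lay above all controls, while knockouts 3 and 4 lay below control 2. The difference was 0.44 (SE 0.18, 95% interval 0.05 to 0.83; limma adjusted p = 0.995; two-sided exact permutation p = 0.114). It was 0.81 among arrays with Xist alone and 0.21 among arrays with Y-linked signal alone. Prdm16 averaged 4.05 over the 8 arrays, a level that markers of other cell types also reached (Cd3e 3.98, Col3a1 4.07).

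Its paralog Mecom was not above the absent-transcript level in either group. Mecom has a pair of features on the array, and the one with the higher mean read 2.77, 3.45, 2.89 and 2.92 in knockouts 1 to 4, against 2.84, 2.64, 2.94 and 3.14 in controls 1 to 4. Only knockout 2, at 3.45, exceeded 3.20. The other feature read 3.43, 2.64, 2.87 and 2.63 in knockouts and 3.02, 3.03, 2.75 and 2.86 in controls, and there only knockout 1 exceeded that level. Across the 8 arrays the features ran against each other (Pearson r = -0.61, a description over 8 arrays). No change in Mecom can be read from these probes.

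**Figure D2:**
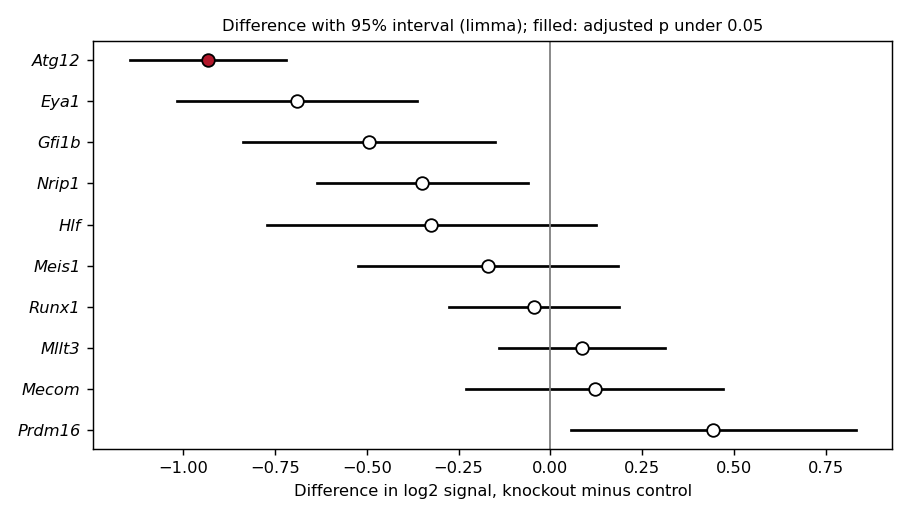
Difference in log2 signal, knockout minus control (horizontal axis), for Atg12 and the 9 genes, with 95% intervals from limma; filled points have an adjusted p under 0.05. Only Atg12 is filled, and the intervals of Eya1, Gfi1b and Nrip1 lie below 0 and that of Prdm16 above 0 before adjustment for the number of genes.

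Hlf, the PAR bZIP factor, spread widely in both groups. It read 5.63, 5.26, 4.94 and 4.81 in knockouts 1 to 4, against 5.0, 5.78, 5.64 and 5.52 in controls 1 to 4. Control 1 lay among the lower knockouts, and knockout 1 among the controls. The difference was -0.32 (SE 0.20, 95% interval -0.77 to 0.12; limma adjusted p = 1.00; two-sided exact permutation p = 0.229). It was -0.49 without control 1 and -0.04 without knockouts 3 and 4 together.

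Meis1, the homeodomain partner of Hox proteins, read 5.39, 5.68, 5.17 and 5.36 in knockouts 1 to 4, against 5.12, 5.67, 5.83 and 5.66 in controls 1 to 4. Control 1 was the lowest of all 8 arrays, and knockout 2 lay above 3 of the 4 controls. The difference was -0.17 (SE 0.16, 95% interval -0.53 to 0.18; two-sided exact permutation p = 0.429), and it was -0.32 without control 1 and -0.10 without knockout 3.

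Runx1 had the second narrowest interval of the 9 genes, after Mllt3. It read 8.20, 7.85, 7.80 and 7.94 in knockouts 1 to 4, against 7.97, 8.07, 7.99 and 7.93 in controls 1 to 4. The knockout arrays lay on both sides of the controls, with an SD of 0.18 against 0.06 in controls (n = 4 each). The difference of -0.04 (SE 0.10) had a 95% interval of -0.28 to 0.19, so a change of 1 on the log2 scale in either direction lies outside it. RefSeq lists a distal and a proximal start for Runx1, and the single array value does not separate them.

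The 9 genes did not vary as a block across the 8 arrays. Hlf, Meis1 and Nrip1 ran together, with Pearson r of 0.78 for Hlf and Nrip1, 0.77 for Meis1 and Nrip1 and 0.72 for Hlf and Meis1 (Spearman rho 0.90, 0.64 and 0.69, n = 8 arrays). After each group's mean was taken off, r was 0.72, 0.80 and 0.67 for the same pairs, and without knockout 3 it was 0.76, 0.70 and 0.65. All 3 genes were at their lowest control value on control 1, and Nrip1 and Meis1 were at their lowest knockout value on knockout 3. These are the 2 arrays that stood apart on the first principal component, and array-wide differences are shared by all points of these correlations. When quantile normalization was repeated, which equalises the distribution of signal between arrays, the differences were -0.29 for Hlf, -0.13 for Meis1 and -0.32 for Nrip1. Hlf, Meis1 and Nrip1 were not set apart from the other genes. Eya1 and Nrip1 had r = 0.78 (rho 0.79), and 0.47 after each group's mean was taken off. Prdm16 and Mllt3 had r = 0.76 (rho 0.62). With group means taken off, r was 0.89 for Mllt3 and Eya1, 0.85 for Prdm16 and Eya1 and 0.78 for Meis1 and Prdm16. Over the 8 arrays as read, Mecom and Gfi1b had r = -0.74, with Mecom mostly at the absent-transcript level.

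**Figure D3:**
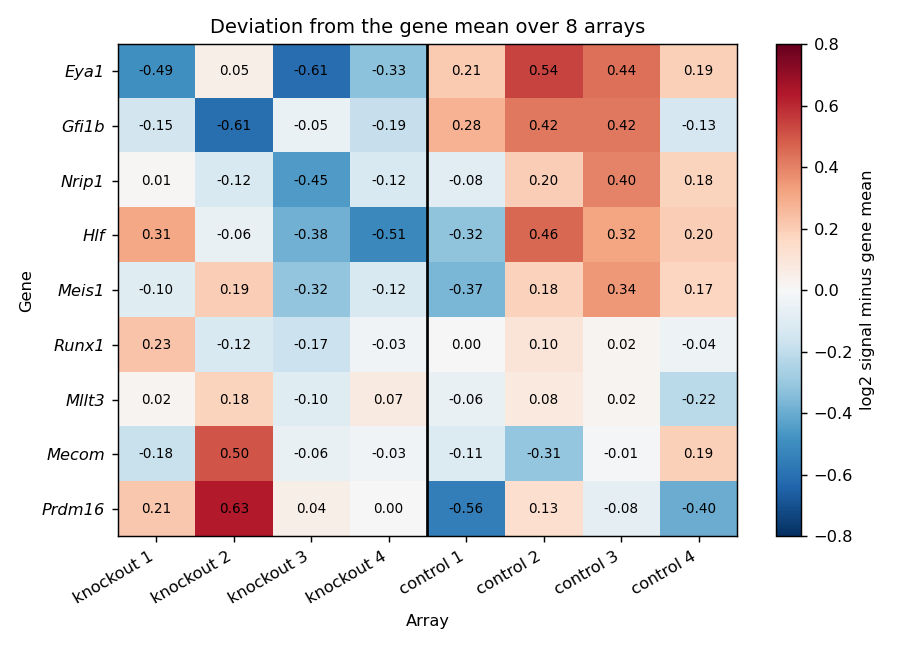
Deviation of each array from a gene's mean over the 8 arrays (log2 signal, colour and printed value), with genes in rows, the 4 knockout arrays left of the line and the 4 control arrays right of it. Eya1 is below its mean in knockouts 1, 3 and 4 and above it in all 4 controls, whereas Hlf and Meis1 are below their means in both knockout 3 and control 1.

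The nearest other gene by pattern over the 8 arrays was found for the 8 genes above the absent-transcript level, among 12354 genes. It was Nkiras1 for Eya1 (Pearson r = 0.97), Zfp831 for Gfi1b (0.97), Per2 for Nrip1 (0.98), Csnk1d for Meis1 (0.97), Rnf20 for Hlf (0.95), Ifi47 for Mllt3 (0.96), Tra2b for Prdm16 (0.95) and Ccdc137 for Runx1 (0.94). With 8 arrays and this many candidates, such values describe the arrays and nothing more.

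Paralogs of the 9 genes were mostly lower in knockout samples, and none passed the test. Of 11 paralogs 10 had a difference below 0, beside 49.4% of all genes, and the median was -0.14. Among genes above the absent-transcript level it was 8 of 9 paralogs, beside 53.1% of all such genes. Dbp, which like Hlf and Tef encodes a PAR bZIP factor of the clock output, read 4.16, 4.41, 3.75 and 4.36 in knockouts 1 to 4, against 4.63, 4.67, 4.66 and 4.63 in controls 1 to 4. All knockouts lay below all controls, which were nearly identical to each other. The groups did not overlap for 1 of the 11 paralogs, against 2.9% of all genes. Dbp was named for the lowest limma p of this list, so its exact p is no separate test. The difference was -0.48 (SE 0.14, limma adjusted p = 0.949; two-sided exact permutation p = 0.0286), and its family member Tef had a difference of -0.26 (SE 0.16). Eya2, the paralog of Eya1, differed by -0.34 (SE 0.19) and the groups overlapped. Eya4 and Meis2 were not above the absent-transcript level on any array. Gfi1, the paralog of Gfi1b that acts in HSCs and myeloid cells, differed by -0.09 (SE 0.14), with a 95% interval of -0.39 to 0.21.

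Among 32 other transcription factors of stem and progenitor cells 0 passed the test in either direction, and 26 had a difference below 0, with a median of -0.12. Over all genes 49.4% had a difference below 0. Among genes above the absent-transcript level it was 25 of 31 in this list, beside 53.1% of all such genes. Over the whole list the count was 23 of 32 without knockout 3, chosen after the data were seen, and 26 of 32 after repeated quantile normalization. Gata2, a zinc finger factor that HSCs require and a reported target of Mecom, read 5.51, 5.54, 5.49 and 5.25 in knockouts 1 to 4, against 5.57, 6.52, 6.27 and 5.97 in controls 1 to 4. The groups did not overlap, with control 1 close to the knockouts, and the difference was -0.64 (SE 0.18, limma adjusted p = 0.949; two-sided exact permutation p = 0.0286). Mycn, which promotes HSC proliferation together with Myc, was not above the absent-transcript level on any knockout array and was above it on 3 of 4 control arrays. Gata2 and Mycn were named for the 2 lowest limma p of this list, so the exact p of Gata2 is no separate test. The groups did not overlap for 4 of the 32, against 2.9% of all genes. The list mean lay at 6.34 to 6.46 in knockouts and 6.45 to 6.63 in controls.

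Gata2 is also a factor of mast cells, and markers of mast cells and basophils were read beside it. None of the 9 markers passed the test over all genes. Their list mean lay at 4.81 to 5.35 in knockouts and 5.17 to 5.58 in controls, so that the groups overlapped. Of the 9 markers 8 had a difference below 0, beside 49.4% of all genes. Cpa3, mast cell carboxypeptidase, averaged 6.87 ± 0.55 in knockouts and 8.03 ± 0.50 in controls (SD, n = 4 each; limma adjusted p = 0.880 and two-sided exact permutation p = 0.0286). Ms4a2, a chain of the IgE receptor, was above the absent-transcript level on 2 of 4 knockout and 4 of 4 control arrays, and the mast cell proteases Cma1 and Tpsb2 were not above it on any array. A mean above that level was found for 7 of the 9 markers. Mcpt8 averaged 7.80 in knockouts and 8.18 in controls, and Hdc 7.94 and 8.13. Cpa3 and Ms4a2 were named for the 2 lowest limma p of this list, so the exact p of Cpa3 is no separate test. The groups did not overlap for 2 of the 9, against 2.9% of all genes. The part of these cells in the Gata2 values was not tested.

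Reported targets of the 9 factors lay on both sides of 0. Of 15 such genes 0 passed the test, 9 were below 0 and 6 above, and the median was -0.07. At an unadjusted limma p under 0.05 there were 3, where 4.94% of all genes reached that level. All 3 were lower in knockouts (2.5% of all genes): Gata2, described above, Pf4, and Nfe2, a megakaryocyte and erythroid factor, at -0.25 (SE 0.10). Pf4, reported to be driven by Runx1 and by Meis1, read 4.29, 4.52, 4.20 and 2.85 in knockouts 1 to 4, against 4.75, 4.48, 5.97 and 6.26 in controls 1 to 4. Only knockout 2, just above control 2, kept the groups from separating. The other 12 targets had differences between -0.20 and 0.20. Among them the myeloid granule genes Mpo and Elane, both reported Runx1 targets, differed by 0.02 (SE 0.08) and 0.04 (SE 0.09), and Spi1, the gene of PU.1, by -0.06 (SE 0.08).

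Genes of partner proteins lay on both sides of 0. Of 29 genes, 13 were below 0 and 16 above, the median was 0.00468, and 0 passed the test. Dach1, a corepressor that works with Eya proteins, read 6.00, 6.03, 5.44 and 6.02 in knockouts 1 to 4, against 6.04, 6.52, 6.40 and 6.37 in controls 1 to 4. Every knockout lay below every control, control 1 by a small margin, and the difference was -0.46 (SE 0.15, limma adjusted p = 0.991; two-sided exact permutation p = 0.0286). Six4, which encodes a DNA-binding partner of Eya proteins, was not above the absent-transcript level on any array. Ell, an elongation factor of the complex that Mllt3 joins, differed by -0.34 (SE 0.10) with no overlap between the groups. Dach1 and Ell were named for the 2 lowest limma p of this list, so the exact p of Dach1 is no separate test. The groups did not overlap for 2 of the 29, against 2.9% of all genes. Cbfb, the partner of Runx1, differed by 0.06 (SE 0.08), Kdm1a, the demethylase recruited by Gfi1b, by -0.01 (SE 0.09), and Hoxa9, a partner of Meis1, by -0.01 (SE 0.14).

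**Figure D4:**
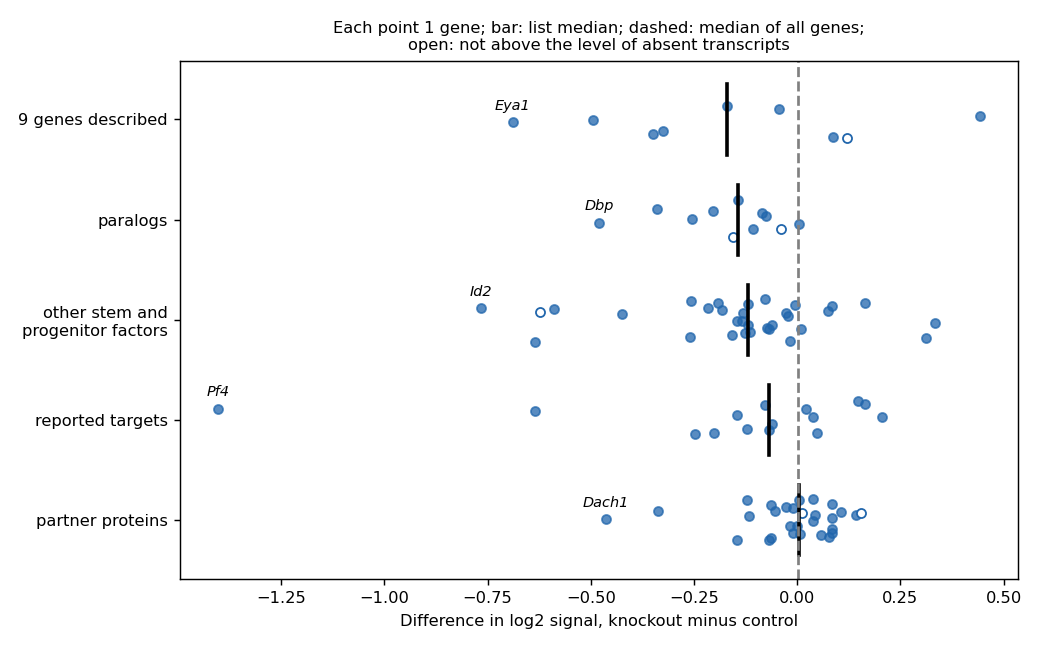
Difference in log2 signal, knockout minus control (horizontal axis), for each gene of the 9 described and of 4 wider lists (rows); open points lie at the absent-transcript level by their mean, black bars are list medians and the dashed line the median of all genes. The medians of paralogs (-0.14) and other stem and progenitor factors (-0.12) lie left of the line and that of partner proteins (0.00468) on it.

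For other cell types that may be carried through a sort, 4 further marker lists were read. The list mean of granulocyte and macrophage markers lay at 6.20 to 6.68 in knockouts and 6.31 to 6.94 in controls (8 of 9 genes above the absent-transcript level). Of these 9 genes 6 were lower in knockouts and 3 higher, with a median difference of -0.23. The neutrophil gene Lcn2 differed by 0.66 (SE 0.17), against the direction of most of the list, and Ltf by -0.31 (SE 0.12). B cell markers lay at 3.50 to 3.62 in knockouts and 3.60 to 3.83 in controls (4 of 8 genes above that level), and Vpreb1, a surrogate light chain gene, differed by -0.45 (SE 0.19). T and NK cell markers lay at 3.66 to 3.94 in knockouts and 3.80 to 3.90 in controls (4 of 9 above), with Nkg7 at -0.17 (SE 0.08). Endothelial and stromal markers, read because Mecom, Hlf and Eya1 can be expressed in such cells, lay at 3.51 to 3.67 in knockouts and 3.47 to 3.67 in controls (4 of 10 above), and Pdgfrb differed by -0.28 (SE 0.12). The endothelial gene Cdh5 was above that level on 2 of 4 knockout and 0 of 4 control arrays. Ltf, Cd79a, Ms4a1, Cd3g, Klrd1, Kdr and Lepr were not above that level on any array. Other genes of the same lists were above it on all 8 arrays, among them S100a8, Cd79b, Pax5, Cd3e, Cd8a, Pecam1 and Col1a1. None of the genes in these lists passed the test over all genes, and their part in the values of the 9 genes was not tested.

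**Figure D5:**
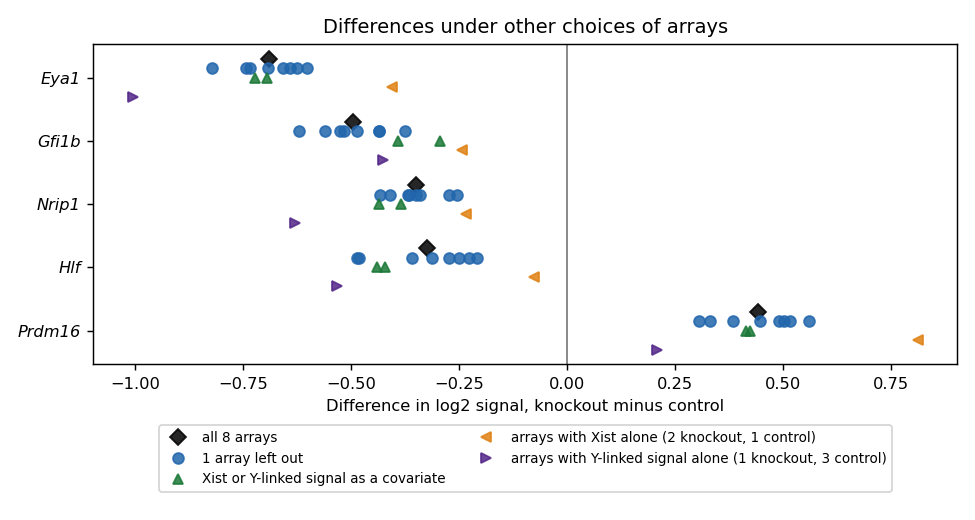
Difference in log2 signal, knockout minus control (horizontal axis), of the 5 genes of largest difference (rows), with all 8 arrays, with 1 array left out, with a sex-linked signal as a covariate, and within arrays of one sex-linked signal. Eya1, Gfi1b, Nrip1 and Hlf stay below 0 and Prdm16 above 0 in every case drawn, while the size varies, for Eya1 between -1.01 and -0.41.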

How the data were processed

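Per the labels' protocols, RNA from double-sorted cells was isolated with the PicoPure kit and amplified with the Ovation Pico WTA system, which can add noise at low signal. The deposited values are log2 signals, 1 per transcript cluster and array, and the submitters' processing notes name RMA and limma, without versions or settings. The annotation and genome build of the symbols are not given in the sources used here. Both tables as deposited, 1 with gene names and 1 of series values, hold the same 28853 features and differ by 0 at most. Of these features, 1494 have no symbol and were left out. The feature of highest mean was kept for each of the 1502 symbols with several, which gave 24213 genes.

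Knockout minus control was fitted without covariates or filter in R 4.3.3 with limma 3.58.1 (lmFit, eBayes), with Benjamini-Hochberg adjustment over all genes. Single genes were also given a two-sided exact permutation test over 70 assignments (scipy 1.17.1). The fit was tested on simulated data, where it also called 8 unchanged genes. Arrays hold no read depth, and 4 mice per group limit the precision.

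The members and lists were chosen with earlier results of these data known. Named genes were Atg12, the 9 genes, the 2 measured genes of smallest limma p in each list, all sort markers and the nearest gene by pattern. Other list members are named after their values were seen. Hbb-b1 and Adgre1 were not found by symbol. Alternatives were the replicate block, each array left out, other features, filters, scalings and variance models, sex-linked covariates and splits, and a looser threshold. The omission of knockouts 3 and 4 together, and alternatives of list counts, were added after the data were seen. Promoters are from RefSeq.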

Additional observations from a re-analysis of the deposited data

Results flagged for a closer look

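In each group of 4 arrays the highest and the lowest array were set against the others, and 5 of 76 groups (38 genes named in the text) held an array whose gap to its neighbour was, relative to the group's range, above Dixon's 95% critical value. Chance alone flags about 1 group in 20. Dach1 was low on knockout 3 (5.44), and Gata2 was low on knockout 4 (5.25). Ell (5.19) was high and Flt3 (4.78) low on control 1, and Lcn2 was high on control 3 (7.42). None of the 9 genes was among them.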

How the results depend on the processing

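Under 25 alternatives Eya1, Gfi1b, Nrip1, Hlf and Meis1 stayed below 0 and Prdm16 above 0, and 0 of the 9 genes were called in the 23 that gave a test; the lowest adjusted p was 0.380, for Eya1 with limma-trend. Mecom (0.12) ranged from -0.028 (without knockout 2) to 0.20 with 1 array left out, and was -0.0073 when Xist was a covariate. Runx1 (-0.04) ranged from -0.13 to 0.0050 (without knockout 3) with 1 array left out, and was 0.034 without knockouts 3 and 4 together. The median of the 9 genes, -0.17, ranged from -0.32 (without control 1) to -0.083 with 1 array left out. Over the arrays that had Y-linked signal and no Xist it was -0.37, with knockout 3 the only knockout among them. The number of genes called, 1, became 0 with the replicate block, with arrays centred on their median, with a covariate for Xist or for Y-linked genes, and without knockouts 3 and 4 together. With 1 array left out it ranged from 0 to 3, with the 3 found without control 4. Same-numbered arrays shared only a number: their deviations correlated at -0.10 to 0.12, and 0 of 4 knockouts correlated best with the control of its own number. The causes were not tested.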

Other observations

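Hlf, Dbp and Tef belong to a family of clock output factors, so 19 genes of the circadian clock and its output were read, a list chosen after values of these data were seen. Of the 19, 10 had a difference below 0 and 9 above, beside 49.4% of all genes below 0, with a median of -0.08, and 0 passed the test over all genes. The largest differences were negative. The repressor gene Nr1d1 read 4.33, 4.83, 4.51 and 4.71 in knockouts 1 to 4, against 5.06, 5.11, 5.05 and 4.95 in controls 1 to 4, with no overlap. Its difference was -0.45 (SE 0.12, limma adjusted p = 0.880). The groups did not overlap for 2 of the 19, against 2.9% of all genes. Per2 read 4.49, 4.35, 4.08 and 4.38 in knockouts 1 to 4, against 4.45, 4.69, 4.75 and 4.56 in controls 1 to 4, and differed by -0.29 (SE 0.11), with knockout 1 just above control 1. Per1 differed by -0.24 (SE 0.15) and Ciart by -0.44 (SE 0.30). The activator genes Clock, Arntl and Rora differed by 0.05 (SE 0.14), 0.07 (SE 0.20) and -0.32 (SE 0.14). The repressor genes Cry1, Cry2 and Bhlhe40 differed by 0.06 (SE 0.09), 0.03 (SE 0.12) and 0.14 (SE 0.13).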
